A study of Sus scrofa with 24 samples.

Results

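The genes of oxidative phosphorylation were followed across the liver transcriptomes of 24 pigs. They were taken from the deposited count table by symbol: every row beginning with NDUF, UQCR, SDHA to SDHD or ATP5, every COX gene numbered 4 to 8, and CYC1 or CYCS, provided that it had a total count of at least 100 over the 24 libraries. Of 13463 genes in the table, 50 met the symbol rule and 49 were kept, since COX6B2 had 6 counts in all. By their names, 22 of the 49 belonged to complex I, 4 were complex I assembly factors, 3 belonged to complex II, 4 to complex III, 10 to complex IV and 6 to complex V. No row carried the symbol CYCS or SDHA or that of any of the 13 subunits encoded by mitochondrial DNA, so these were not analysed here, and each complex was represented by some of its nuclear genes.

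The study asked whether illicit treatment of fattening pigs with anabolic steroid esters leaves a trace in the liver transcriptome. Hybrid pigs of Large White, Landrace and Duroc descent received repeated intramuscular injections of Sustanon, a mixture of testosterone esters, at 4 mg/kg body weight, or of Myodin, a nandrolone ester, at 5 mg/kg, or were left untreated. Nandrolone is testosterone without a methyl group. The Sustanon group held 3 castrated boars, 3 sows and 2 uncastrated boars, the Myodin group 2 castrated boars, 3 sows and 3 uncastrated boars, and the untreated group 3 castrated boars, 3 sows and 2 uncastrated boars, with 1 poly(A) library from each pig. Untreated pigs were kept in a room of their own and each treatment in its own pens, so treatment and housing cannot be told apart. The uncastrated boars formed groups of 2 and 3 pigs.

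Libraries held between 9267780 and 14017276 counts. The hepatocyte gene ALB lay between 44880 and 157100 TPM, a level corrected for gene length and library depth, while the skeletal muscle genes CKM and TNNT3 did not exceed 1.89 TPM in any pig. The Y-linked gene KDM5D went against the labelled class in 3 untreated libraries: castrated boar 15 had 0 counts, and sows 16 and 18 had 35 and 95 counts, against 36 to 82 in the other males and 0 in the other sows. Castrated boars and sows were pooled, by their labels, as pigs without testes. The pooling does not settle these 3 labels, and results were also computed without these libraries. The column heading of Sustanon sow 6 carried the suffix of the Sustanon castrated boars. Its KDM5D count was 0, and its label as a sow was used. In whole liver, fewer cells of a type and less RNA per cell cannot be told apart.

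Oxidative phosphorylation takes place in the inner mitochondrial membrane. Complexes I and II pass electrons from NADH and succinate to ubiquinone, complex III hands them on to cytochrome c, and complex IV delivers them to oxygen; complexes I, III and IV pump protons, and complex V, the ATP synthase, lets them flow back to make ATP. Hepatocytes are rich in mitochondria, and this ATP feeds gluconeogenesis, urea synthesis and the making of plasma proteins.

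The 49 genes together held between 0.962% and 1.60% of all TPM in a pig. COX4I1, the main isoform of a complex IV subunit with a regulatory role, was the most abundant at 1402 ± 206 TPM (SD, n = 24), followed by COX7B at 1179 ± 187 TPM, and the ranges of these neighbours overlapped. NDUFA4, which its symbol places in complex I although the protein is now counted with complex IV, led its group at 586 ± 140 TPM. UQCRQ, a small subunit of complex III, stood at 578 ± 120 TPM, ATP5PB, a stalk subunit of the ATP synthase, at 486 ± 75.3 TPM, and SDHB, the iron-sulfur subunit of complex II, at 468 ± 47.1 TPM. Subunits of the same complex thus differed widely in TPM, complex II from 73.3 ± 17.4 TPM for the membrane anchor SDHC to the level of SDHB. In total counts, without the correction for gene length, SDHC had 63014 and SDHB 84329. The assembly factors, which help to build complex I without staying in it, were low, from 3.74 ± 1.15 TPM for NDUFAF4 to 21.3 ± 3.85 TPM for NDUFAF1.

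Complex IV has subunit isoforms known for their high levels in heart and skeletal muscle. Both such isoforms in the table were present in these livers, COX7A1 at 108 ± 15.6 TPM and COX6A2 at 29.0 ± 4.80 TPM. The ubiquitous counterpart COX7A2 was higher in TPM, at 686 ± 135 TPM, with no overlap between its lowest pig and the highest pig for COX7A1. This order rests on the correction for gene length in TPM: in total counts COX7A1 had 38386 and COX7A2 22932. No row carried the symbol of the liver form of COX6A, which was not analysed here.

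**Figure D1:**
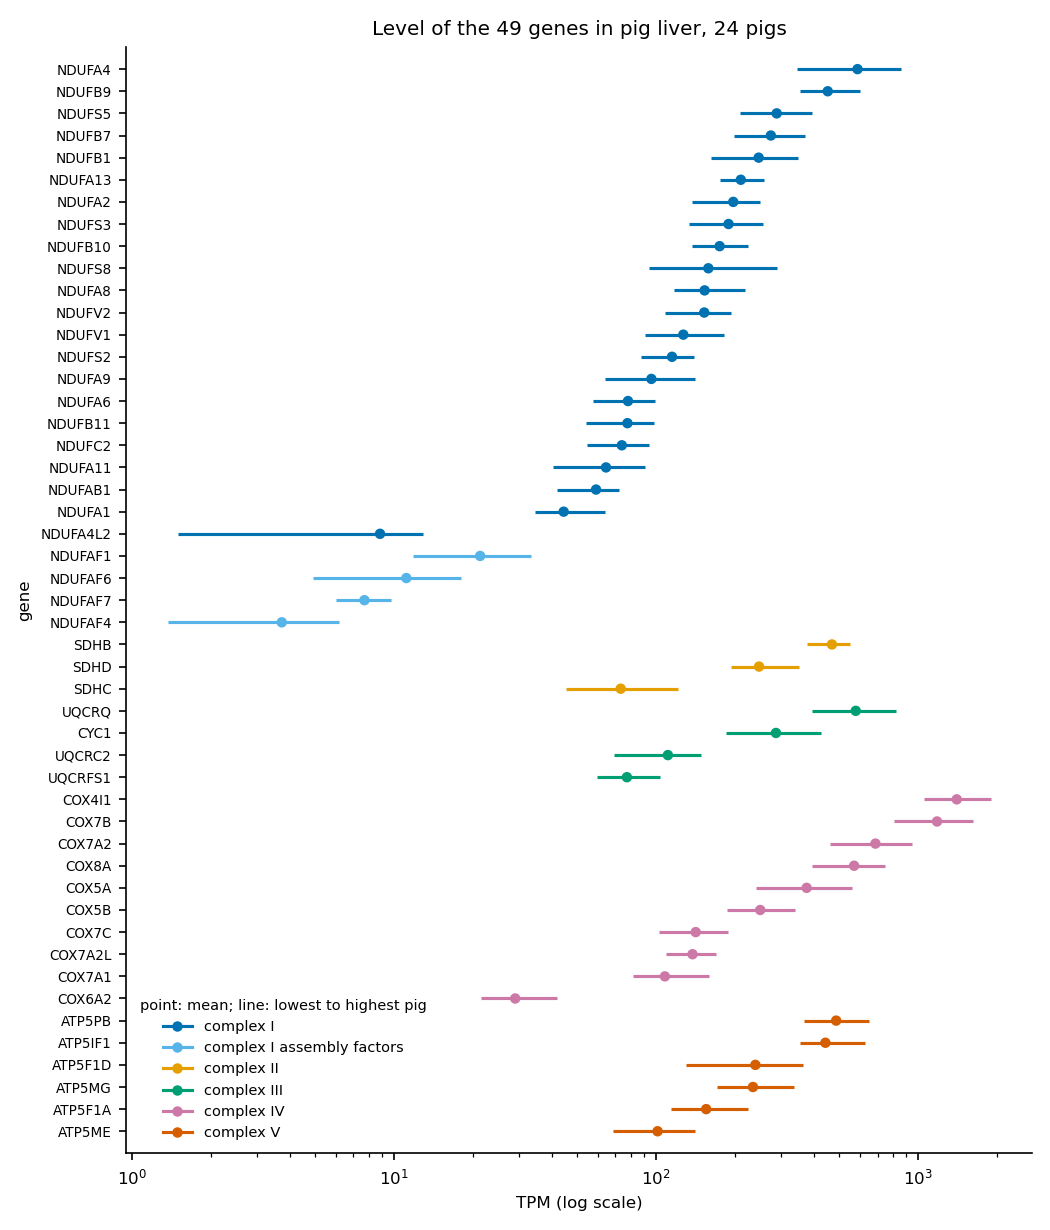
Level of each of the 49 genes in TPM on a log scale, with the mean of 24 pigs as a point, the range from the lowest to the highest pig as a line, and the complex as colour. COX4I1 and COX7B lie furthest to the right with means of 1402 and 1179 TPM, and the means of the 4 assembly factors run from 3.74 to 21.3 TPM.

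The median gene of oxidative phosphorylation varied less between pigs than the median of all tested genes. It had a standard deviation of 0.22 in log2 CPM, the count scaled to normalised library size, over the 24 pigs. The value for the 8754 genes tested was 0.32. Within the 8 untreated pigs the values were 0.17 and 0.28. A total of 46 of these genes had at least 100 counts in every library, and tested genes were not matched to them for level. Neither this comparison nor that of correlations below therefore shows whether genes of similar level differ from these genes. Over the 1176 pairs of these genes the median Pearson correlation across pigs was 0.42, with 230 pairs below 0, against a median of 0.00 for all pairs of tested genes; pigs of all groups and library depth are shared by every pair, and no test was made. It was 0.74 within complex III, 0.66 within complex V, 0.53 within complex IV, 0.31 within complex I and its assembly factors, and 0.15 within complex II. The closest pairs crossed complexes: COX5B of complex IV and ATP5ME of complex V had r = 0.91, and COX5A, a matrix-side subunit of complex IV, and NDUFA11, a membrane-arm subunit of complex I, also had r = 0.91. A total of 5 genes had a median correlation below 0 with the others, namely NDUFA4L2, a hypoxia-induced relative of NDUFA4, NDUFAF1, NDUFAF7, NDUFB1 and NDUFC2.

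A score was formed for each pig as the median of the standardised log2 CPM over all 49 genes. It was highest in Myodin castrated boars 8 and 9, at 1.31 and 1.25, and 15 genes had their highest CPM in boar 8 and 8 genes in boar 9. It was lowest in Myodin uncastrated boar 23, at -1.33, and in Sustanon castrated boar 2, at -1.01, with 11 genes at their lowest CPM in each. The other Sustanon castrated boars, 1 and 3, were at 0.85 and 0.75, so pigs of the same class and treatment lay far apart. The 3 Sustanon sows were close together, from -0.73 to -0.58, below the 3 Myodin sows, from 0.07 to 0.24. In the untreated group the score ran from -0.53 to 0.67. Myodin uncastrated boar 23 was also the lowest pig for a score of cytoplasmic ribosomal protein genes, at -1.88, and among the lower pigs for summed hepatocyte markers, at 112900 TPM in a range of 92170 to 215300 TPM; their part in its low score was not tested.

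**Figure D2:**
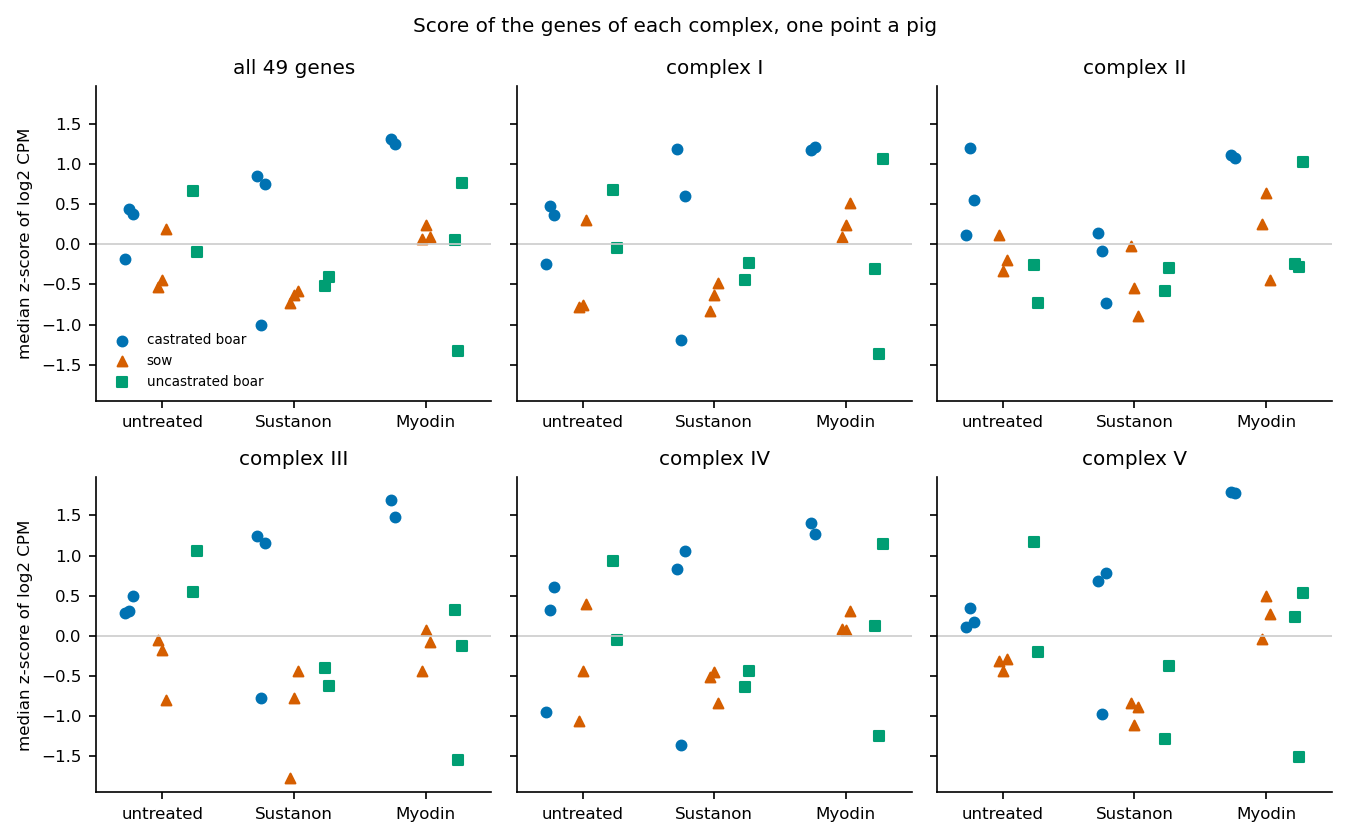
Score of all 49 genes and of the genes of each complex (median z-score of log2 CPM), with 1 point for each pig, the treatment on the horizontal axis, and the class as colour and marker. Sustanon sows lie below Myodin sows for all 49 genes, from -0.73 to -0.58 against 0.07 to 0.24, as they do for complexes I, IV and V, while the sows of both treatments overlap for complexes II and III.

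The comparison of all Sustanon pigs with all untreated pigs asked for an effect of testosterone esters across classes. A single gene, NDUFC2, rose. Of the 49 genes 10 were higher and 39 lower, with a median log2 fold change of -0.08 against -0.01 for all tested genes, and it was -0.12 without Sustanon castrated boar 1 and -0.13 without castrated boar 3. By complex the medians were -0.05 for complex I, -0.08 for its assembly factors, -0.06 for complex II, -0.11 for complex III, -0.07 for complex IV and -0.12 for complex V, where all 6 genes were lower. With edgeR's quasi-likelihood test 1 of 49 passed an adjusted p of 0.05, where 5.07% of all tested genes did, and 2 of 49 had an unadjusted p under 0.05, where 19.6% did. The 95% interval of every gene lay within 1 log2 unit of 0, and that of 43 genes within 0.5.

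NDUFC2 encodes an accessory subunit in the membrane arm of complex I and lies at chr9:12486488-12492507 in the pig assembly Sscrofa11.1, where no other RefSeq gene overlaps it. In the 8 Sustanon pigs its lowest value was 70.6, the median 84.9 and the highest 95.5 CPM. In the 8 untreated pigs the lowest was 57.0, the median 64.5 and the highest 73.8 CPM. All but 1 of the Sustanon pigs lay above every untreated pig, the exception being castrated boar 2. The means were 84.5 ± 8.48 and 65.5 ± 5.07 CPM (SD, n = 8 each), a log2 fold change of 0.37 (SE 0.10, adjusted p = 0.029 from edgeR). DESeq2 called it as well (adjusted p = 0.0091), and so did limma on log2(TPM + 1) (adjusted p = 0.043). Without the 3 untreated libraries that go against their class its log2 fold change was 0.40 with an adjusted p of 0.136, in a fit that called 0 of 8434 genes, 1199 of which had an unadjusted p under 0.05. Summed markers of stellate and stromal cells, 4 of 7 of which were measured, lay at 87.0 to 212 TPM in Sustanon and 57.4 to 188 TPM in untreated pigs, and those of hepatocytes at 144800 to 215300 and 120000 to 183200 TPM. Both measured red blood cell markers were lower after Sustanon (median -0.38), as were all 3 measured bile duct markers (-0.21), none called. The part of these lists in this result was not tested. The call was also lost on leaving out single pigs, namely Sustanon sow 4 or 5, Sustanon uncastrated boar 19 or 20, untreated castrated boar 13, or untreated sow 16 or 17.

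NDUFA4 was the other gene with an unadjusted p under 0.05 and went the opposite way. It ranged from 112 to 194 CPM with a median of 136 after Sustanon and from 154 to 211 CPM with a median of 164 in untreated pigs. A total of 7 of the 8 Sustanon pigs lay below every untreated pig, and castrated boar 3 was within their range. The log2 fold change was -0.31 (SE 0.14), and the adjusted p of 0.22 did not pass. ATP5F1D, the delta subunit of the rotating part of the ATP synthase, had a log2 fold change of -0.29, the lowest of complex V, with an adjusted p of 0.36.

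**Figure D3:**
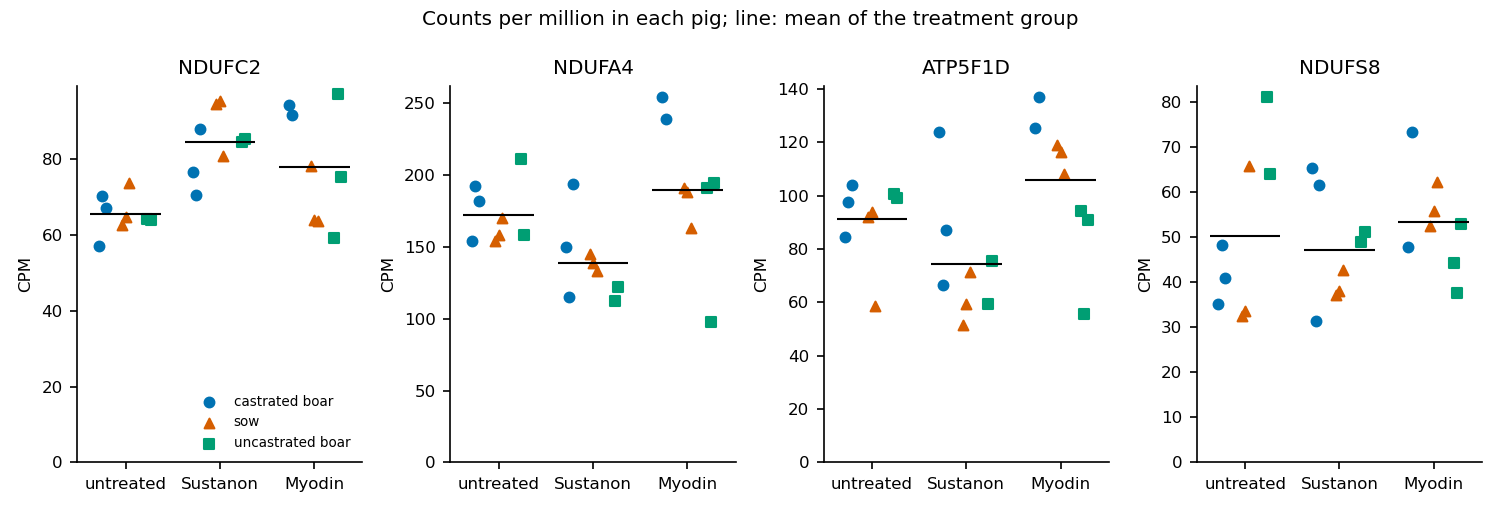
CPM of NDUFC2, NDUFA4, ATP5F1D and NDUFS8 in each pig, by treatment on the horizontal axis and class as colour and marker, with a line at the mean of each treatment group. NDUFC2 is higher in Sustanon than in untreated pigs with means of 84.5 and 65.5 CPM, NDUFA4 is lower in 7 of 8 Sustanon pigs than in every untreated pig, and ATP5F1D and NDUFS8 overlap between treatments.

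Among pigs without testes 6 Sustanon and 6 untreated pigs were compared. None of the 49 genes passed with edgeR, DESeq2 or limma, against 5.43% of all tested genes with edgeR, and 1 had an unadjusted p under 0.05, against 19%. This gene was NDUFC2 again, with 70.6 to 95.5 CPM in treated and 57.0 to 73.8 CPM in untreated pigs, a log2 fold change of 0.35 (SE 0.12) and an adjusted p of 0.092. These pigs are also part of the comparison of all pigs. The 49 genes had a median of -0.04, with 33 of them lower (from -0.09 without Sustanon castrated boar 3 to 0.00 without Sustanon castrated boar 2, over single pigs left out), and no complex had a median beyond -0.07, that of complex V. The iron-sulfur subunit SDHB and the small complex IV subunit COX8A both had log2 fold changes of 0.00, with standard errors of 0.11 and 0.13. The heme subunit CYC1 of complex III had -0.01 (SE 0.15), the muscle-type COX7A1 -0.02 (SE 0.13), and ATP5IF1, the inhibitor of the ATP synthase, -0.08 (SE 0.12). The assembly factors NDUFAF1 and NDUFAF7 had -0.21 (SE 0.15) and -0.17 (SE 0.10). All 4 measured stellate and stromal markers were higher after Sustanon, none called, with a median of 0.54 and sums of 104 to 185 against 57.4 to 137.8 TPM. All 6 hepatocyte markers were higher with a median of 0.14. Both measured red blood cell markers were lower (median -0.71), as were all 3 measured bile duct markers (-0.20), none called. The part of these lists was not tested.

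Myodin against untreated pigs of all classes gave 0 of 49 genes past the threshold with edgeR, DESeq2 or limma. Over all tested genes edgeR called 0%, too, with 7.21% at an unadjusted p under 0.05, and the single member at that level was NDUFC2. It lay between 59.2 and 97.3 CPM after Myodin with a median of 76.8 CPM, and 5 of 8 pigs were above every untreated pig. Its log2 fold change was 0.24 (SE 0.10) with an adjusted p of 0.60. Of the 49 genes 36 were higher, with a median of 0.05. They were all 6 of complex V (median 0.10), 9 of 10 of complex IV (0.08), 16 of 22 of complex I (0.05), all 3 of complex II (0.05) and 2 of 4 of complex III (0.005). All 4 assembly factors were lower (-0.14). The median of complex III was -0.06 without Myodin castrated boar 8 and -0.04 without boar 9. The median of the 49 genes was 0.02 without Myodin castrated boar 8 and 0.01 without boar 9, and 0.10 without Myodin uncastrated boar 23 or untreated uncastrated boar 25. All 3 measured bile duct markers were lower (median -0.58), as were both red blood cell markers (-0.68), none called, and their part was not tested. This comparison and that of Sustanon share the untreated pigs.

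In pigs without testes Myodin gave mostly higher values, none of which passed the test. The comparison of 5 Myodin with 6 untreated pigs had 41 of 49 genes higher and a median of 0.13, against 0.01 for all tested genes. Without Myodin castrated boar 8 the median was 0.05 and 17 genes were lower. The medians of the full comparison were 0.15 for complex I, 0.07 for complex II, 0.17 for complex III, 0.18 for complex IV and 0.24 for complex V, and -0.19 for the 4 assembly factors, all of which were lower. None was called by edgeR, DESeq2 or limma, where edgeR called 0.0914% of all genes, and 4 had an unadjusted p under 0.05, where 10.1% of all genes did. ATP5F1D had values of 108, 116, 119, 126 and 137 CPM after Myodin and of 58.7 to 104 CPM with a median of 93.0 in the 6 untreated pigs. The log2 fold change of ATP5F1D was 0.45 (SE 0.19, adjusted p = 0.42). COX8A had a mean of 154.5 ± 9.33 CPM (SD, n = 5) against 124.6 ± 15.1 CPM (SD, n = 6) and an adjusted p of 0.44 from edgeR. The other genes at this level were NDUFS8, an iron-sulfur subunit of complex I, at 0.45 (SE 0.19), and NDUFAF7, a methyltransferase needed for complex I assembly, at -0.29 (SE 0.11). Cytoplasmic ribosomal protein genes had 33 of 35 members higher in this comparison, none called, with a median of 0.12. All 3 measured bile duct markers of 5 had lower values after Myodin, none called, with a median of -0.58, and summed to 18.3 to 26.6 TPM after Myodin and 25.8 to 39.6 TPM in untreated pigs. All 3 measured endothelial markers were higher, none called, with a median of 0.30 and sums of 39.0 to 66.0 against 31.7 to 51.2 TPM. Both measured red blood cell markers were lower, none called, with a median of -0.34. The part of any of these lists was not tested.

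The steroids were set against each other in pigs without testes, at doses that differ. Here the genes of oxidative phosphorylation were mostly lower after Sustanon than after Myodin: 42 of 49 genes, with a median of -0.16 against -0.01 for all tested genes. All 6 genes of complex V, all 10 of complex IV, all 4 of complex III and all 3 of complex II were lower, as were 18 of 22 of complex I, while 3 of the 4 assembly factors were higher. The medians were -0.27 for complex V, -0.22 for complex III, -0.17 for complex II, -0.15 for complex I, -0.13 for complex IV and 0.24 for the assembly factors. None of the 49 was called by edgeR, although 2.43% of all genes were, and limma also called 0. A total of 12 had an unadjusted p under 0.05, all of them lower, where 19.4% of all genes reached that level, 812 higher and 888 lower. The number at that level was 9 with DESeq2, 8 with RLE normalisation and 4 with limma on log2(TPM + 1), and 42, 42 and 39 genes were lower in these fits. Over single pigs left out it ran from 2, without Sustanon sow 6, to 16, without Sustanon castrated boar 1, and the median of the 49 genes from -0.22 to -0.12.

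ATP5F1D had the smallest p of these. Its 6 Sustanon pigs had 51.4, 59.4, 66.7, 71.4, 87.1 and 124 CPM and its 5 Myodin pigs 108 to 137 CPM. All but Sustanon castrated boar 1 lay below every Myodin pig. The log2 fold change was -0.66 (SE 0.19, 95% interval -1.04 to -0.28), with an adjusted p of 0.057 from edgeR and 0.024 from DESeq2, and from 0.0073 to 0.133 over all settings. NDUFA4 followed, at 115 to 194 CPM with a median of 142 after Sustanon and at 163, 188, 191, 239 and 254 CPM after Myodin. Its log2 fold change was -0.50 (SE 0.16), with an adjusted p of 0.085, and in a fit of the castrated boars and sows alone it passed, with adjusted p from 0.036 to 0.185 over all settings. The remaining 10 were ATP5ME, ATP5IF1 and ATP5MG of complex V, COX5A, COX5B and COX8A of complex IV, and NDUFA6, NDUFA11, NDUFB11 and NDUFS3 of complex I, with log2 fold changes from -0.39 for COX5A to -0.25 for ATP5MG and no adjusted p under 0.17.

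**Figure D4:**
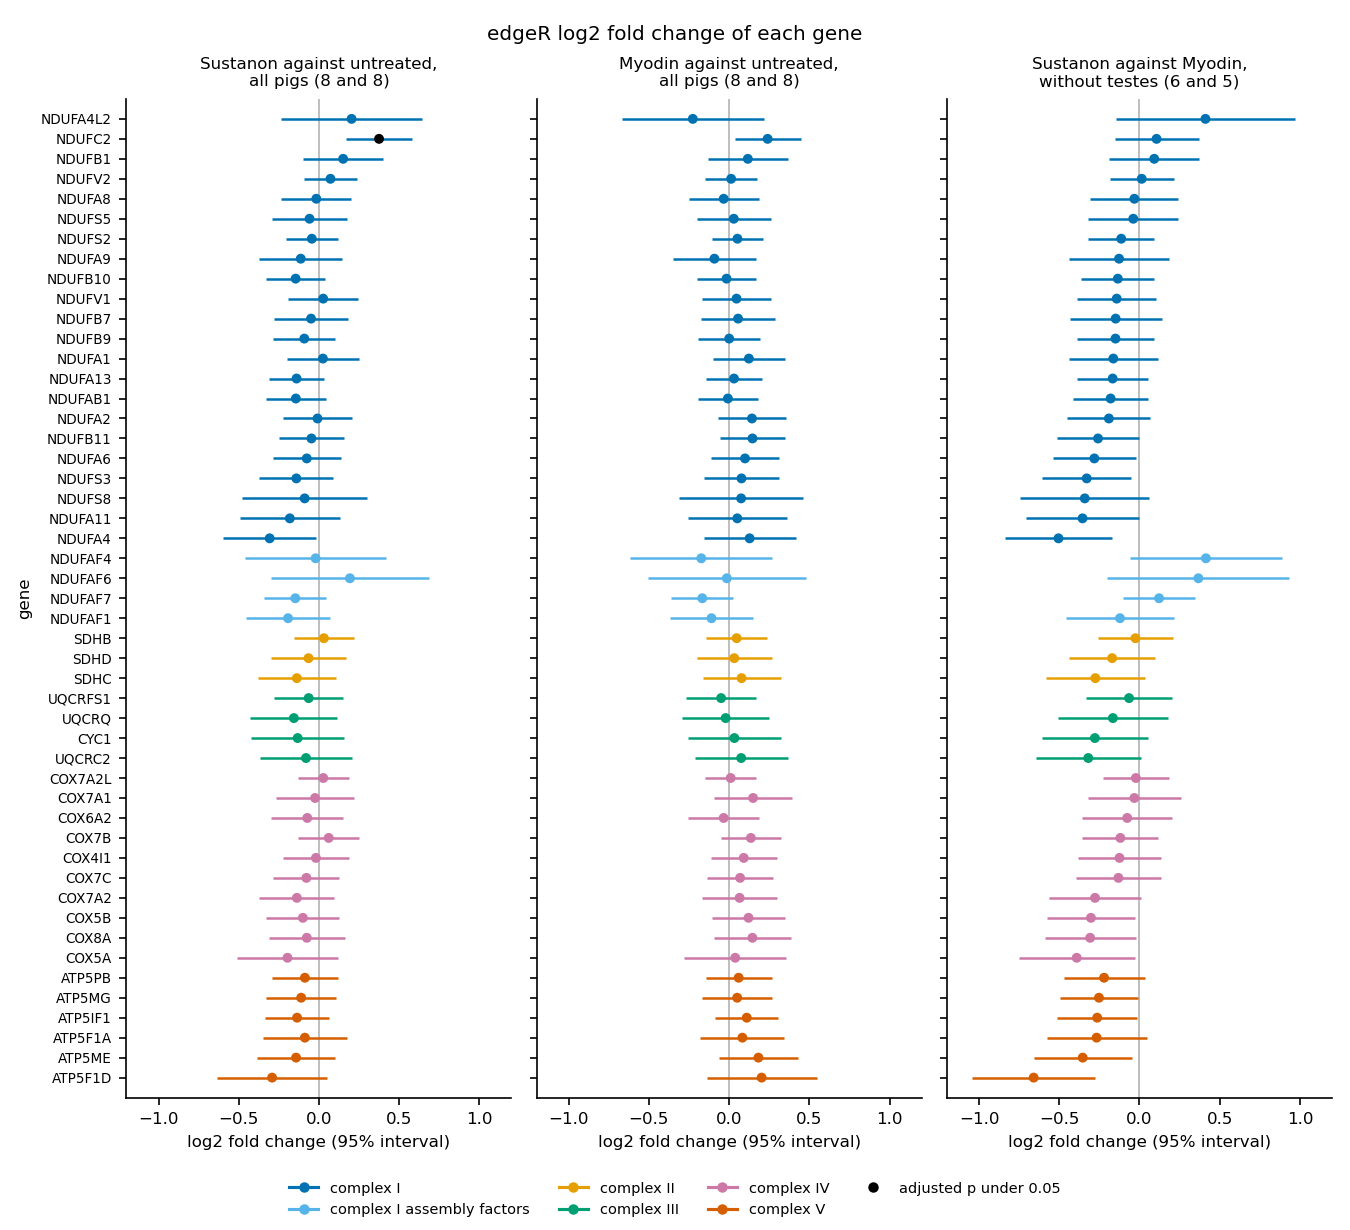
edgeR log2 fold change with its 95% interval for each of the 49 genes in the comparisons of Sustanon with untreated, of Myodin with untreated, both in all pigs, and of Sustanon with Myodin in pigs without testes, coloured by complex and with a black point at an adjusted p under 0.05. Only NDUFC2 in the first panel passes, and in the third panel 42 of 49 points lie below 0.

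The same pigs were then read within each class, as a difference of mean log2 CPM with no test. These values are parts of the pooled comparison, so they are no separate support for its direction. They were chosen after seeing the data. In castrated boars, 3 after Sustanon and 2 after Myodin, 45 of 49 genes were lower after Sustanon with a median of -0.24, and in sows, 3 of each, 38 of 49 were lower with a median of -0.15. Without Sustanon castrated boar 2, the pig with the second lowest score, the castrated boars had 40 of 49 genes lower with a median of -0.09, and all 6 genes of complex V remained lower with a median of -0.28. Leaving out any other pig gave medians of -0.31 to -0.23 in castrated boars and of -0.19 to -0.14 in sows. For 22 genes in castrated boars every Sustanon pig lay below every Myodin pig, as for 10.7% of all tested genes, and for 19 genes in sows, as for 16.6%. These 22 included all 6 genes of complex V, and the 19 included 4 of them. Summed endothelial markers (3 of 4 measured) lay at 27.2 to 47.5 TPM after Sustanon and 39.0 to 66.0 TPM after Myodin in pigs without testes, stellate and stromal markers at 104 to 185 and 53.0 to 164 TPM, and hepatocyte markers at 144800 to 215300 and 114400 to 188700 TPM. Cytoplasmic ribosomal protein genes were lower after Sustanon in 30 of 35 cases, with a median of -0.09. Over the same pigs carriers and electron donors were lower in 11 of 13 cases, with a median of -0.29. All 6 measured leukocyte markers of 8 were lower, with a median of -0.18, and summed to 385 to 485 TPM after Sustanon and 425 to 575 TPM after Myodin. edgeR called no gene of these lists, and DESeq2 called 2 hepatocyte markers. The part of any of these was not tested.

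Testes themselves were compared in untreated pigs, 2 uncastrated boars against 6 pigs without testes. No member passed with edgeR, DESeq2 or limma, where edgeR called 1.43% of all genes, and 35 of 49 were higher in uncastrated boars with a median of 0.13. All 4 genes of complex III were higher (median 0.16), as were 5 of 6 of complex V (0.17), 8 of 10 of complex IV (0.14) and 16 of 22 of complex I (0.11), and all 3 of complex II were lower (-0.18). These medians rest on few pigs: without untreated uncastrated boar 25 the median of all 49 genes was 0.00 and that of complex V -0.03, and on log2(TPM + 1) that of complex II was -0.01. The single gene with an unadjusted p under 0.05, where 14.5% of all genes reached it, was NDUFS8. Uncastrated boars had 64.0 and 81.0 CPM, and pigs without testes 32.6, 33.6, 35.1, 40.9, 48.3 and 65.9 CPM. The highest of these, labelled sow 18, lay between both boars and is 1 of the 3 libraries with KDM5D counts against their class. The log2 fold change was 0.76 (SE 0.25), with an adjusted p of 0.143, and of 0.044 without that library; over all settings it ran from 0.044 to 0.58. NDUFS8, at chr2:4863295-4867392, lies 91115 bases from NDUFV1, the NADH-binding subunit of complex I, at chr2:4958508-4964211, and over the 24 pigs the nearest pattern to that of NDUFV1 was that of NDUFS8 (r = 0.78), while the nearest to NDUFS8 was that of COX8A (r = 0.79). NDUFS8 falls outside the rule for named genes and was chosen after its values were seen. CYC1 was at 238 and 251 CPM in uncastrated boars and at 167 to 209 CPM in pigs without testes, with a log2 fold change of 0.42 and an adjusted p of 0.36. Stellate and stromal markers summed to 135.5 and 188.2 TPM in uncastrated boars and to 57.4 to 137.8 TPM in pigs without testes, and 3 of the 4 measured were higher with a median of 0.61. Cytoplasmic ribosomal protein genes were higher in 27 of 35 cases (median 0.05) and mitochondrial ones in 28 of 39 (0.09). None of these was called, and their part was not tested.

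In uncastrated boars neither steroid gave a call, with edgeR, DESeq2 or limma. After Sustanon, 2 boars against 2, 42 of 49 genes were lower with a median of -0.19, including all 6 of complex V (-0.36) and all 4 of complex III (-0.31), and 1 had an unadjusted p under 0.05, where 10.6% of all genes did and 0% passed adjustment. Without untreated boar 25 the median was -0.11 with 35 genes lower. Cytoplasmic ribosomal protein genes were lower in 33 of 35 cases (median -0.18) and mitochondrial ones in 27 of 39 (-0.10), none called, and the cytoplasmic score did not overlap, at -0.934 and -0.782 against 0.815 and -0.312; their part was not tested. The gene at that level was NDUFA4, at 112 and 122 CPM after Sustanon and 158 and 211 CPM in untreated boars, with a log2 fold change of -0.65 (SE 0.27, adjusted p = 0.39). NDUFC2 was at 84.6 and 85.3 CPM against 64.0 and 64.2 CPM, a log2 fold change of 0.40, and its unadjusted p from edgeR was not under 0.05. These boars are also part of the comparison of all pigs in which it was called. After Myodin, 3 boars against 2, 36 of 49 genes were lower with a median of -0.10, including all 4 of complex III (-0.27), and 2 had an unadjusted p under 0.05, where 9.1% of all genes did and 0% passed. This median rests on single boars: without Myodin boar 23 it was -0.02 and without untreated boar 25 it was -0.01, with 25 of 49 genes lower in either case, and without Myodin boar 24 it was -0.23 and without untreated boar 27 -0.18. NDUFS8 was at 37.7, 44.3 and 52.9 CPM after Myodin against 64.0 and 81.0 CPM (log2 fold change -0.69, SE 0.29). COX7A1, the muscle-type isoform, was at 146, 150 and 242 CPM against 124 and 137 CPM (0.46, SE 0.21), with uncastrated boar 24 far above the others. The Myodin boars were a mixed group, since boar 23 had the lowest and boar 24 one of the higher scores of all pigs. Their ALB levels of 61590 and 44880 TPM were among the 3 lowest. All 3 Myodin boars lay below both untreated boars for summed hepatocyte markers (6 of 7 measured), at 92170 to 138500 against 155400 and 166200 TPM, and for stellate and stromal markers, at 60.2 to 90.4 against 135.5 and 188.2 TPM. Endothelial markers lay at 18.7 to 43.8 against 42.4 and 54.9 TPM, and those of red blood cells (2 of 4 measured) at 488.1 to 3146 against 2861 and 5974 TPM. Cytoplasmic ribosomal protein genes were lower in 28 of 35 cases, with a median of -0.09. The part of any of these was not tested.

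The difference between the steroid effects with and without testes was tested as an interaction. For Sustanon none of the 49 genes had even an unadjusted p under 0.05 with edgeR or limma, or was called by DESeq2, against 6.92% of all genes and 0.0457% past adjustment. For Myodin 0 passed adjustment with edgeR, DESeq2 or limma, against 0.0914% of all genes, and 7 had an unadjusted p under 0.05, all with a lower Myodin effect in uncastrated boars, against 12%. That number was 15 with limma and 3 without the 3 libraries that go against their class. NDUFS8 had the largest of these, a difference of -1.14 (SE 0.35, adjusted p = 0.19), followed in size by ATP5F1D at -0.77, CYC1 at -0.71, NDUFA11 at -0.69, COX5A at -0.67, ATP5MG at -0.51 and NDUFV1 at -0.47. The intervals were wide, that of ATP5F1D running from -1.46 to -0.07.

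Genes around the respiratory chain were read from lists of the same pathway. They are set against the 5.07% of all tested genes called in all pigs and the 5.43% called in pigs without testes, to which 1 gene of a list of 12 or 13 is close. Both shares are from edgeR. DESeq2 called 616 of 8279 and 622 of 8754 genes in these comparisons. It called 479 of 8754 for Sustanon against Myodin and 250 of 8754 for untreated uncastrated boars. In the comparison of all Sustanon with all untreated pigs, 2 of 19 measured assembly factors outside the symbol rule rose and none fell: TMEM70, which helps to assemble the ATP synthase, by 0.52 (SE 0.11, adjusted p = 0.011 from edgeR), and HIGD2A, which helps to assemble complex IV, by 0.50 (SE 0.12, adjusted p = 0.015). In the tricarboxylic acid cycle, which feeds NADH and succinate to the chain, 1 of 13 genes rose with edgeR, SUCLG1 of succinyl-CoA synthetase, by 0.40 (adjusted p = 0.022, and 0.057 without Sustanon uncastrated boar 19). DESeq2 also called PDK4, a kinase that inhibits pyruvate dehydrogenase, at -0.75 (adjusted p = 0.037, and 0.076 from edgeR). Of 12 carriers and electron donors 1 rose, ETFA, which brings electrons from fatty acid oxidation, by 0.55 (adjusted p = 0.017 from edgeR), while 8 had lower values, none called, and the list's median was -0.18. In pigs without testes 9 of 13 had lower values with a median of -0.21 and edgeR called none, ETFA being at 0.47 (adjusted p = 0.055). DESeq2 called ETFA there (adjusted p = 0.023) and also COQ7, an enzyme of ubiquinone synthesis, at -0.40 (adjusted p = 0.039, and 0.056 from edgeR). Among the 10 regulators of mitochondrial biogenesis edgeR called none in the comparison of all pigs. DESeq2 called ESRRA, an orphan nuclear receptor that drives genes of this pathway, whose log2 fold change was 0.33 (adjusted p = 0.060 from edgeR and 0.031 from DESeq2). In pigs without testes ESRRA rose by 0.42 (adjusted p = 0.033 from edgeR). TMEM70, HIGD2A and SUCLG1 were called there as well, at 0.50, 0.49 and 0.47 (adjusted p = 0.0032, 0.017 and 0.014 from edgeR). The coactivator PPARGC1A had -0.13 there (adjusted p = 0.79). Without the 3 libraries that go against their class, the log2 fold changes of TMEM70, HIGD2A, SUCLG1 and ETFA in all pigs were 0.50, 0.48, 0.38 and 0.56, and none passed, as for every other gene in that fit. In pigs without testes TMEM70 passed without them as well, at 0.54 with an adjusted p of 0.028, and ESRRA, at 0.36, did not (0.196). HIGD2A, at 0.54 (0.082), and SUCLG1, at 0.53 (0.059), did not pass without them either. HIGD2A also lost its call in pigs without testes when Sustanon sow 5 alone was left out (0.052). The call of ESRRA was also lost without Sustanon castrated boar 1, Sustanon sow 5 or 6, untreated castrated boar 13, or untreated sow 16 or 18, at adjusted p of 0.063 to 0.086. In Sustanon against Myodin without testes DESeq2 called the regulator POLRMT at 0.39 (adjusted p = 0.025, and 0.070 from edgeR). In untreated uncastrated boars against pigs without testes DESeq2 called CS of the tricarboxylic acid cycle at 0.63 (adjusted p = 0.041, and 0.084 from edgeR). It also called the assembly factor NUBPL at -0.65 (adjusted p = 0.040, and 0.092 from edgeR). The calls of CS and NUBPL rest on 2 uncastrated boars.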

How the data were processed

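Total liver RNA from 24 pigs was sequenced by the authors as stranded poly(A) libraries with paired reads, which were adapter-trimmed (Skewer) and aligned to the pig genome (STAR 2.5; Sscrofa11.1 per the labels); FastQC and DESeq2 are also listed in the submitters' processing notes. The deposited count table holds raw counts per gene (9267780 to 14017276 per library). A second table deposited by the authors holds log2(TPM + 1), from which TPM was computed; how it was derived from the reads, and whether counting used strand, is not given in the sources used here. The 9 members that overlap another RefSeq gene are therefore less certain. Of the 49 members 33 were located in RefSeq. The table has 3779 rows without a symbol, which could include members.

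Counts were fitted with edgeR 4.0.16 (R 4.3.3; filterByExpr, TMM normalisation, quasi-likelihood test, two-sided, Benjamini-Hochberg adjustment over all tested genes) in a fit of 3 treatments (8279 genes) and a fit of 6 groups, treatment by testes (8754 genes). All 49 members passed the filter. A gene was called at an adjusted p under 0.05. Replicates are separate pigs, and no pair of libraries in a group agreed within sampling noise (at least 23.6 chi-square units per gene). CPM used TMM factors, and log2 CPM a prior count of 2. Scripts were tested on simulated data. Alternatives were DESeq2 1.42.0, RLE normalisation, no filter, limma 3.58.1 on log2(TPM + 1), a fold threshold, class as a covariate, only castrated boars and sows, leaving out doubted libraries or each pig, and a prior count of 0.5.

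Genes named were members called in any comparison, the 3 smallest p-values per complex in Sustanon against untreated pigs without testes, the highest TPM per complex, and isoform pairs; others are given where p was under 0.05. Members and lists were chosen with earlier results of these data known. A planned search of promoters for motifs was not run, as no promoter sequences were used here.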

Additional observations from a re-analysis of the deposited data

Results flagged for a closer look

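Within the 3 treatment groups of 8 pigs, 78 sets of values (20 genes in CPM and 6 scores) were examined for a pig standing apart by Dixon's ratio, and 8 did; chance alone sets apart about 1 group in 20. Sustanon castrated boar 3 was the highest of its group for 3 genes, NDUFA4 at 194 CPM, COX7B at 286 CPM and COX7A2 at 109 CPM, where the next pigs were at 149.7, 228 and 84.2 CPM. Sustanon castrated boar 2 was the highest for SDHC at 288 CPM, with the next at 238 CPM, although its score over all 49 genes was the lowest of that group. Myodin uncastrated boar 23 was the lowest for COX8A at 91.3 CPM, with the next at 135 CPM. Myodin uncastrated boar 24 was the highest for COX7A1 at 242 CPM, with the next at 172 CPM. Untreated sow 18, whose KDM5D counts go against its label, was the lowest for UQCRC2 at 89.8 CPM and for ATP5F1D at 58.7 CPM, with the next pigs at 150.3 and 84.6 CPM. No score of a complex or of all 49 genes set a pig apart.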

How the results depend on the processing

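The count of 1 gene called for Sustanon against all untreated pigs stayed at 1, always NDUFC2, with DESeq2, RLE normalisation, no filter, limma, class as a covariate and without castrated boar 15. It was 0 without the 3 untreated libraries at odds with their class (fewer samples; 0 genes called in all) and 0 when a log2 fold change of 1 was also required. Leaving out single pigs gave 0 to 1, with 0 without Sustanon sow 4 or 5, Sustanon uncastrated boar 19 or 20, untreated castrated boar 13, or untreated sow 16 or 17. NDUFC2 kept its direction in 32 settings (0.34 to 0.41; adjusted p 0.0091 to 0.136). The count of 0 for Sustanon against Myodin became 1 with DESeq2 (ATP5F1D), 1 with castrated boars and sows alone (NDUFA4), and 0 to 2 on leaving out single pigs, with 1 without Sustanon castrated boar 1 or Myodin uncastrated boar 22 and 2 without Sustanon castrated boar 3 or Myodin uncastrated boar 23. That for uncastrated boars against untreated pigs without testes gave 0 to 1, with 1, NDUFS8, without sow 18. The cause was not tested. The other 7 counts were 0 in every setting, and 37 of the 41 log2 fold changes given for single members kept their sign in every setting. The 4 others were close to 0, in Sustanon against untreated pigs without testes: COX8A and SDHB were -0.0073 and -0.0079 without a filter, CYC1 and COX7A1 0.0067 and 0.057 without castrated boar 15, and COX7A1 0.0604 without the 3 libraries and 0.0202 on log2(TPM + 1). Leaving out single pigs, COX8A ran from -0.0829 to 0.0539, SDHB from -0.0351 to 0.0435, CYC1 from -0.1577 to 0.0636 and COX7A1 from -0.0853 to 0.057. Of 1472 alternative values of 49 medians of complexes 1467 moved by less than the median standard error of their genes. The 5 others were in untreated uncastrated boars complex V (0.17) at -0.03 without boar 25 and complex II (-0.18) at -0.01 on log2(TPM + 1), and in Myodin boars complex II (0.18) at -0.04 both on log2(TPM + 1) and without boar 24 and complex I (-0.11) at -0.32 on log2(TPM + 1). Signs of complex medians changed in 16 of 186 values for Sustanon in pigs without testes, 9 of 186 for Myodin in all pigs, 6 of 180 for Myodin boars, 2 of 180 for Sustanon boars, 1 of 180 for untreated boars, and 0 for the other 3 comparisons so followed. The median within castrated boars moved from -0.24 to -0.09 without Sustanon castrated boar 2. Over all genes, the 420 called for Sustanon against all untreated pigs were 616 with DESeq2, 272 without castrated boar 15, 129 with the fold threshold and 0 without the 3 libraries. The 475 in pigs without testes were 124 without these 3. The 213 for Sustanon against Myodin were 479 with DESeq2, 339 with castrated boars and sows alone and 91 with the fold threshold. On log2(TPM + 1) the median of all genes shifted to 0.15 for untreated uncastrated boars and to -0.15 for Myodin boars, where those of the 49 genes were 0.29 and -0.28, and to -0.14 for the Myodin interaction, where it was -0.40. Groups of 2 limit the comparisons of uncastrated boars: leaving out a pig leaves a lone one assumed to vary like the other groups. No paired analysis was possible because replicate numbers are unique to a pig. The within-class values were chosen after seeing the data.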
